A study of Mus musculus with 3 samples.

Results

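Slc7a10-high astrocytes made up 1856 of the 14192 cells profiled from mouse prefrontal cortex at postnatal day 6. The label given to them is protoplasmic astrocytes, the bushy astrocytes of gray matter. They were chosen cell by cell by a rule on 20 genes, in which a gene counted as detected when its corrected count was above 0. A member had at least 4 of the 5 astrocyte genes Slc1a3, Slc1a2, Aqp4, Gja1 and Aldoc, and at least 2 of the 3 transporter genes Slc7a10, Slc6a11 and Slc39a12. It had no Gfap, at most 1 of the division genes Mki67, Top2a, Cenpf and Birc5, at most 1 of the oligodendrocyte precursor genes Pdgfra, Lhfpl3 and C1ql1, and at most 1 of the endothelial and microglial genes Cldn5, Flt1, Csf1r and P2ry12. The values of these genes are given as a description only, because they chose the cells.

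The tissue came from mice of both sexes that had breathed about 3% sevoflurane, a volatile anesthetic, in a single session on postnatal day 6 and were killed that day. The only group is made of 3 single-cell libraries of the 10x Genomics kind, so nothing reported here compares exposed with unexposed animals. The labels give no strain and no genotype, and they mention frozen tissue and Trizol but not how single cells were obtained. Nothing says that the libraries came from separate animals, so the spread between libraries may be technical. SD values measure that spread. SE and p-values measure how differences between classes of cells varied from library to library, pooled over all astrocyte classes in the fit. That variation may be technical too.

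Astrocytes clear glutamate and GABA from around synapses, buffer potassium, supply lipids and glutamine to neurons, and join one another through gap junctions. In rodent cortex they arise from radial glia and are still multiplying by local division in the first postnatal week. Gray matter astrocytes usually hold little Gfap, an intermediate filament protein, whereas astrocytes of white matter, of the pial border and of injured tissue hold more. Slc7a10 encodes an exchanger of small neutral amino acids such as glycine and serine, Slc6a11 a GABA transporter and Slc39a12 a zinc importer.

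On GRCm38 the GENCODE annotation places Slc7a10 at chr7:35186385-35201114 and Slc6a11 at chr6:114131241-114249952, both on the plus strand, and Slc39a12 at chr2:14388316-14494977, also on the plus strand. Both of the first 2 genes were detected in nearly every member. Their promoters are shown as the 250 bases upstream of the RefSeq start on GRCm38.p6, chr7:35186135-35186384 for Slc7a10 and chr6:114130991-114131240 for Slc6a11, plus strand, 5′ to 3′, with each CpG pair in capitals.
Slc7a10: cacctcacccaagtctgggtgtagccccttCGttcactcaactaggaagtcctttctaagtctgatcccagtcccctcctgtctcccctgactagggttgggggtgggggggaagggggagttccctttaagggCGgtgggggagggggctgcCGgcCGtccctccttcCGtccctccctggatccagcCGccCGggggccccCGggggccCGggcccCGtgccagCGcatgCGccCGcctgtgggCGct
Slc6a11: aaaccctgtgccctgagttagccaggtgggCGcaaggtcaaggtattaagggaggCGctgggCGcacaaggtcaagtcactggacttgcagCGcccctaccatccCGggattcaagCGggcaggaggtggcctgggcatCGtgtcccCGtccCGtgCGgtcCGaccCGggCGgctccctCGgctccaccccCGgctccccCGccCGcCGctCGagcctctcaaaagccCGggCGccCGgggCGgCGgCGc
The Slc7a10 window held 14 CpG pairs at a GC content of 69.6%, and the Slc6a11 window held 25 at 71.2%. Windows of the same length with at least that many CpG pairs made up 29.4% and 10.7% of all 32851 RefSeq mouse promoters. The letters TATAAA, an element found just upstream of some gene starts, were present in 12.4% of all promoters and in neither of these windows, on either strand. The letters TTGGC, part of the site bound by nuclear factor I, were present in 41.5% of all promoters and in neither window. These are matches of letters, and no binding was measured.

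Members were 554 of 4775 cells in library 1, 736 of 5134 in library 2 and 566 of 4283 in library 3. That is 11.6% (exact 95% binomial interval 10.7 to 12.5), 14.3% (13.4 to 15.3) and 13.2% (12.2 to 14.3), or 13.1% ± 1.37 (mean ± SD, n = 3). The intervals cover counting error only. Members were compared with 3 other classes of astrocytes that the same genes separate. Gfap-detected astrocytes met the member rule except for having Gfap and for having no condition on the transporters (1453 cells), few-transporter astrocytes had 0 or 1 of the transporters and no Gfap (219 cells), and dividing astrocytes had at least 2 division genes (225 cells). The dividing class set no condition on Gfap or on the transporters. Among the 3753 cells of these 4 classes members made up 45.9%, 48.4% and 55.1% in libraries 1, 2 and 3. Median detected genes per cell lay between 2678.5 and 2790.5 in members, 2631 and 2924.5 in Gfap-detected, 2102 and 2781 in few-transporter and 3110 and 3142 in dividing astrocytes.

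All values below are CPM, each cell's corrected counts scaled to a sum of 1000000, averaged over the cells of a class in 1 library. Corrected counts are the whole numbers behind the deposited values, read here as adjusted for depth because their totals per cell lay in a narrow range. The 3 libraries are given in the order 1, 2 and 3, or as mean ± SD (n = 3). Those totals ran from 4422 to 8135 over the table. Scrublet marked 287 of all cells and 27 of the members (1.45%) as suspected doublets, which were kept, and 33 members had a barcode sequence also present in another library.

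The genes of the rule describe the members as follows. Slc7a10 stood at 1152, 1093 and 1011 CPM, and 98.7% of members had it. Slc6a11 stood at 947, 864 and 893 CPM in 98.5% of members, and Slc39a12 at 261, 268 and 267 CPM in 74.4%. The microglial cells of the same libraries, 1867 cells that should lack these transporters, had Slc7a10 in 4.96% of cells at 11.6 ± 3.19 CPM, with median detected genes of 1818 to 2087.5 per cell. All 3 transporters were detected together in 1329 members (71.6% ± 2.09), Slc7a10 with Slc6a11 alone in 475 (25.6% ± 2.25), Slc7a10 with Slc39a12 in 28 and Slc6a11 with Slc39a12 in 24. Within members the quartiles of the corrected count were 4, 6 and 9 for Slc7a10, 3, 5 and 7 for Slc6a11 and 0, 1 and 2 for Slc39a12. The 5 astrocyte genes were all detected in 1771 members (95.4%). The glutamate transporter genes Slc1a3 and Slc1a2 stood at 4031 ± 129 CPM and 2346 ± 38.8 CPM, the water channel gene Aqp4 at 1384 ± 51.6 CPM, the connexin gene Gja1 at 1497 ± 26.6 CPM and the glycolytic gene Aldoc at 1999 ± 68.9 CPM. Genes the rule capped were low: Mki67 stood at 2.88 ± 0.829 CPM, Top2a at 6.65 ± 0.953 CPM, Pdgfra at 6.15 ± 2.18 CPM, Csf1r at 8.30 ± 5.45 CPM, P2ry12 at 6.22 ± 1.33 CPM, Flt1 at 4.07 ± 0.603 CPM and Cldn5 at 24.1 ± 3.35 CPM.

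A further 16 astrocyte identity genes that the rule did not use were present in the members, from 36.9% of cells for the connexin gene Gjb6 to all cells for the protease inhibitor gene Cst3. Sox9, a transcription factor of astrocytes and their progenitors, stood at 261, 268 and 279 CPM in members against 90.5 ± 8.77 CPM in the 10439 cells outside the 4 astrocyte classes. Aldh1l1, a folate enzyme used as a pan-astrocyte marker, stood at 314, 338 and 336 CPM against 14.5 ± 3.27 CPM. Each library of the members lay above those cells for both. Acsbg1, an acyl-CoA synthetase, stood at 639 ± 10.4 CPM against 32.1 ± 0.542 CPM, and the chloride-channel-associated gene Mlc1 at 974 ± 26.2 CPM against 40.8 ± 2.33 CPM. The claudin gene Cldn10 stood at 659 ± 6.49 CPM against 31.9 ± 2.20 CPM, the bicarbonate transporter gene Slc4a4 at 1041 ± 88.6 CPM against 35.5 ± 0.911 CPM, and the sodium pump subunit gene Atp1b2 at 993 ± 42.5 CPM against 113 ± 8.25 CPM. These genes carry the astrocyte part of the label. The word protoplasmic refers to position and shape, which were not measured, and rests here on the transporters and on a corrected count of 0 for Gfap.

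**Figure D1:**
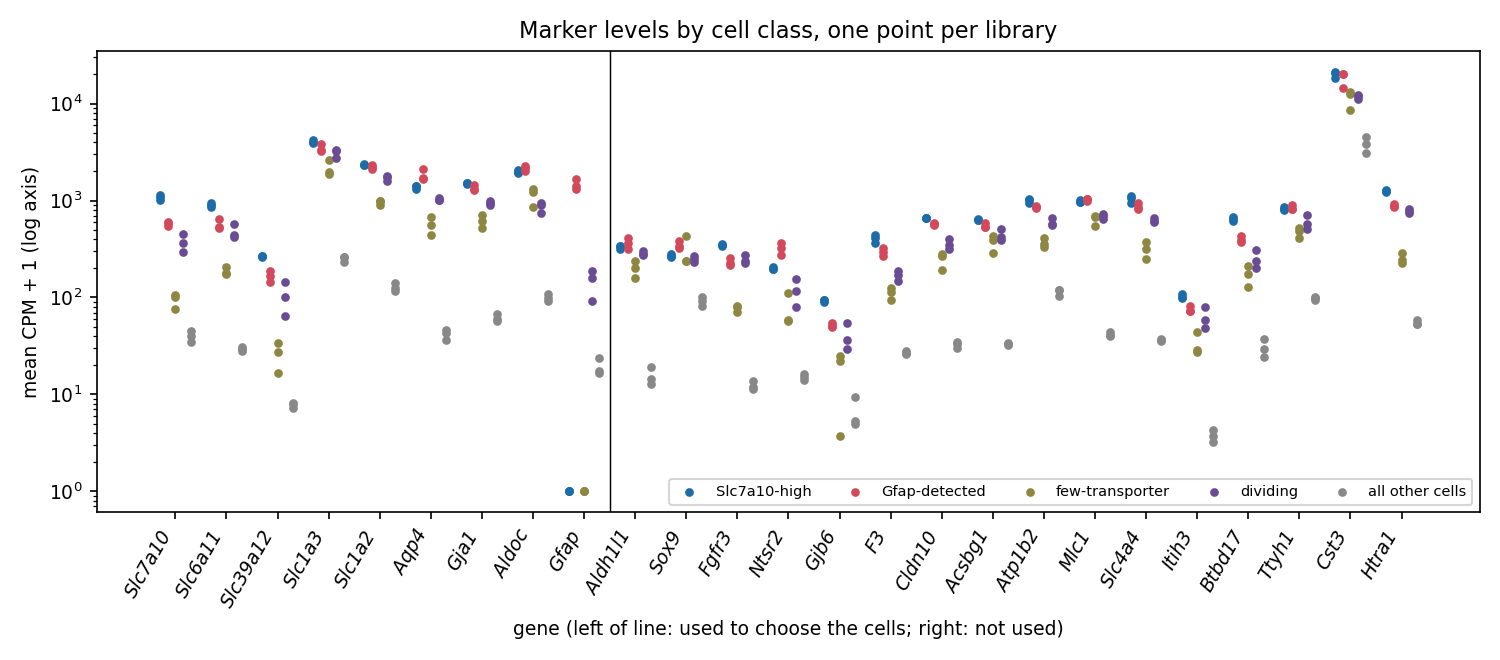
Mean level of marker genes (CPM + 1, log axis) in Slc7a10-high, Gfap-detected, few-transporter and dividing astrocytes and in all other cells (those outside the 4 classes), with 1 point for each of the 3 libraries. Genes left of the vertical line chose the cells. To its right, the 16 identity genes lie higher in Slc7a10-high astrocytes than in all other cells, and the libraries of the members lie close together.

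Near the threshold of the rule, the 4 steps from 0 to 3 detected transporters held 68, 151, 527 and 1329 cells, with medians of 2202, 2374, 2603 and 2781 detected genes. The first 2 steps are the few-transporter astrocytes and the last 2 are the members. The protease gene Htra1 stood at 205 ± 46.2 CPM, 272 ± 24.4 CPM, 999 ± 124 CPM and 1349 ± 4.72 CPM over these steps. The orphan receptor gene Gpr37l1 stood at 249.7 ± 46.4 CPM, 364 ± 23.3 CPM, 978 ± 70.2 CPM and 1349 ± 52.3 CPM. Both were lowest with no transporter and highest with all 3. The neuronal tubulin gene Tubb3 ran the other way, from 891 ± 239.9 CPM with none to 362 ± 104 CPM, 91.1 ± 30.1 CPM and 46.9 ± 17.3 CPM. The radial glial filament gene Vim stood at 448 ± 226 CPM and 472 ± 183 CPM outside the rule and at 187 ± 16.6 CPM and 117 ± 10.9 CPM inside it. Detected genes per cell moved with the number of transporters, and their part in these levels was not tested.

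**Figure D2:**
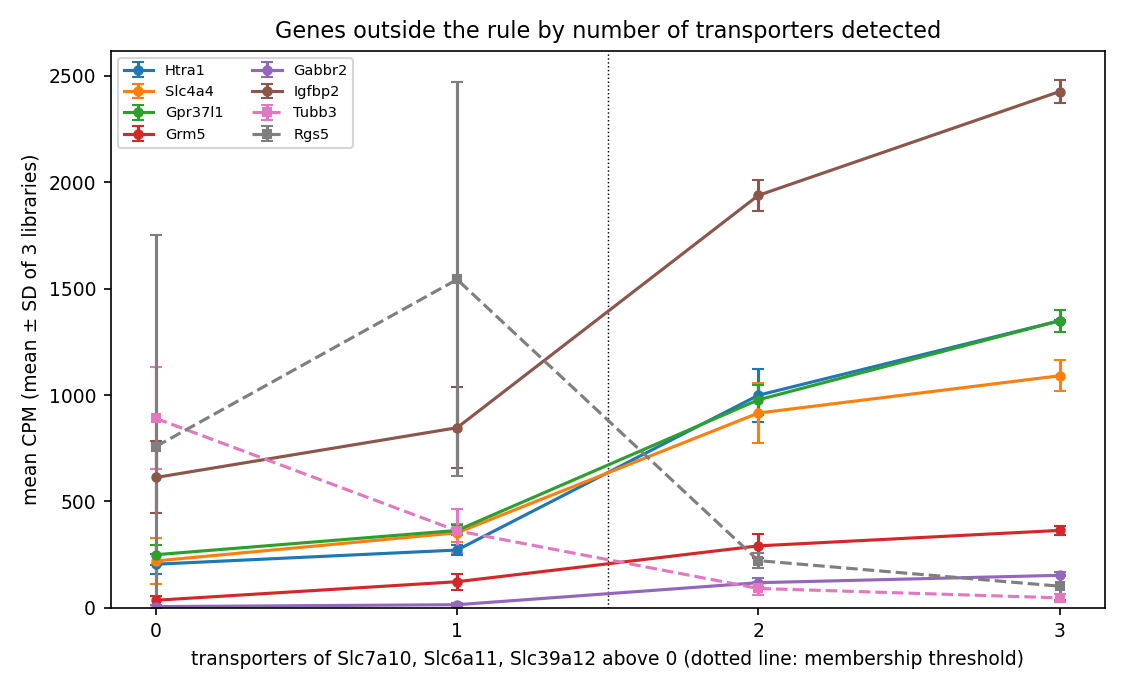
Mean level (CPM, mean ± SD of 3 libraries) of 8 genes outside the rule in cells with 0, 1, 2 or 3 of the transporters Slc7a10, Slc6a11 and Slc39a12, the dotted line marking the threshold of membership. Htra1, Slc4a4, Gpr37l1, Grm5, Gabbr2 and Igfbp2 are higher to the right of the line, and the neuronal gene Tubb3 and the pericyte gene Rgs5 (dashed) are higher to its left, Rgs5 with a wide spread.

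The members varied little between libraries. Of 3606 genes that averaged 50 CPM or more in members, 5 (0.139%) differed by more than 2 times between the highest and the lowest library, and the median ratio was 1.10. Those 5 were Sfrp1, an inhibitor of Wnt signalling made by radial glia, at 103, 40.9 and 103 CPM, and the hemoglobin genes Hbb-bt, Hbb-bs, Hba-a2 and Hba-a1. Sfrp1 was low in library 2, and the hemoglobin genes were low in library 1.

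The comparison with Gfap-detected astrocytes asks how 2 sets of astrocytes that share the astrocyte genes differ when Gfap is detected in one of them. That class also set no condition on the transporters, unlike members. In the main fit, what goes with Gfap and what goes with the transporters cannot be told apart. Slc7a10-high astrocytes had lower levels of Id1, Id3 and Id4, of the early gene Fos, of Vim and of the secreted and membrane proteins Serpinf1, Fxyd6 and Igfbp5, and higher levels of Igfbp2, Sez6l, Ptprz1, the amino acid transporter gene Slc1a4 and receptor genes such as Grm5 and Gabbr2. Of 9393 genes tested with limma, 40 were higher in members (0.426% of genes tested) and 98 lower (1.04%), at an adjusted p under 0.05, and the median log2 difference over all genes was -0.01. Log2 differences here are members minus the compared class, on the scale log2(mean + 10 CPM), with SE from the fit. In the Gfap-detected class 510 cells (35.1%) had a single corrected count of Gfap, and 1122 (77.2%) had at least 2 of the transporters. The counts rest on all 3 libraries: limma called 21 higher and 73 lower without library 1, 0 higher and 4 lower without library 2 (152 and 247 at an unadjusted p under 0.05), and 5 higher and 14 lower without library 3. With only these 2 classes in the fit, and so with their own spread, 821 genes were higher and 1077 lower, and with the Gfap-detected class held to cells with at least 2 transporters 8 were higher and 41 lower. Of the higher genes just named, Slc1a4 (adjusted p = 0.132), Grm5 (0.133) and Gabbr2 (0.103) did not pass under that condition.

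**Figure D3:**
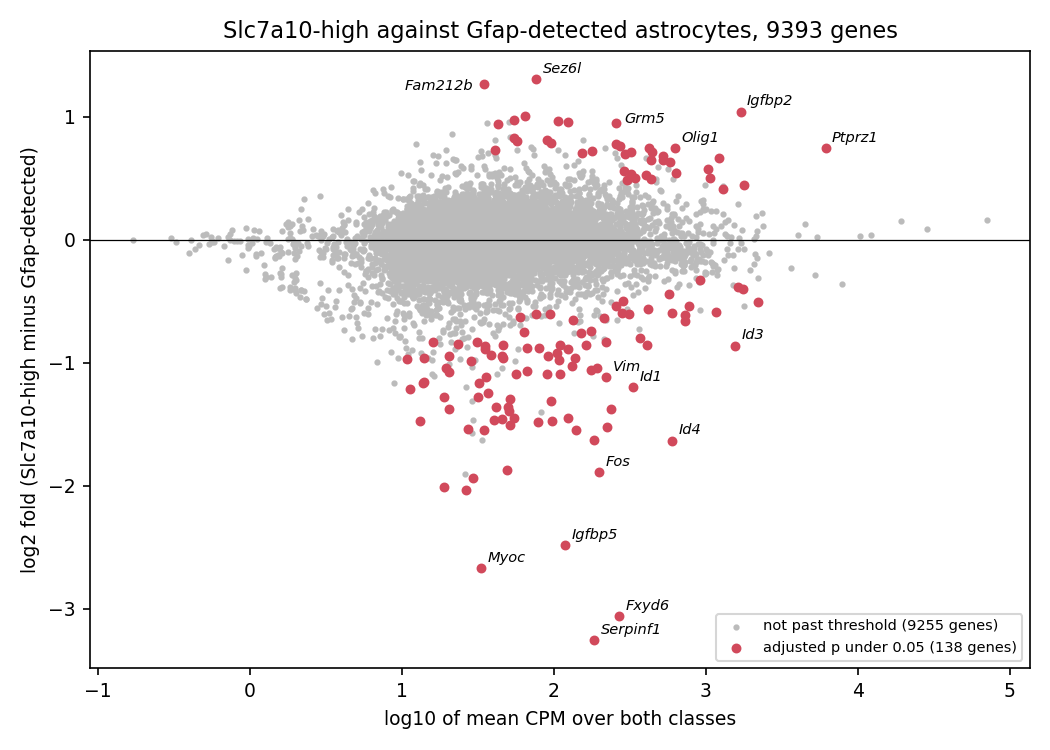
Log2 difference of Slc7a10-high minus Gfap-detected astrocytes (vertical axis) against log10 of the mean CPM over both classes for the 9393 genes tested, 1 point per gene, with the 138 genes at an adjusted p under 0.05 in red. Most genes lie near 0, and the largest differences are in genes lower in Slc7a10-high astrocytes, such as Serpinf1, Fxyd6, Myoc and Igfbp5.

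Serpinf1, which encodes a secreted serpin also called pigment epithelium-derived factor, was lowest relative to the compared class. It stood at 34.9, 33.4 and 15.5 CPM in members and at 308, 385 and 333 CPM in Gfap-detected astrocytes (log2 difference -3.25 ± 0.27, adjusted p = 8.61e-05). Fxyd6, a regulator of the sodium pump, stood at 55.2, 49.8 and 44.9 CPM against 508, 536 and 430.2 CPM (-3.06 ± 0.13, adjusted p = 4.89e-08). The libraries of the 2 classes did not overlap for either gene. Igfbp5, a binding protein of insulin-like growth factors, stood at 35.5, 18.6 and 27.2 CPM against 238, 286 and 105 CPM (-2.48 ± 0.23, adjusted p = 0.000205). Myoc, a secreted glycoprotein, stood at 0.597, 0.697 and 0.518 CPM against 36.1, 41.4 and 119.6 CPM (-2.67 ± 0.32, adjusted p = 0.000976), with library 3 of the Gfap-detected class well above its other two. Calls for Serpinf1, Fxyd6 and Igfbp5 were kept in each of the 17 alternatives, with a highest adjusted p of 0.0408, 0.00285 and 0.0339.

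Among 29 transcription factors of glia, 5 were lower in members and 0 higher (2 higher at an unadjusted p under 0.05), with a median log2 difference of -0.19. Of the 5, 3 were Id genes, which encode inhibitors of bHLH factors and respond to BMP signalling. Id4 stood at 305, 243 and 318 CPM in members and 918, 970.4 and 847 CPM in Gfap-detected astrocytes (-1.63 ± 0.17, adjusted p = 0.000397). Id1 stood at 213, 194 and 186 CPM against 399.8, 450.0 and 561 CPM (-1.20 ± 0.13, adjusted p = 0.000862), and Id3 at 1112 ± 96.3 CPM against 2023 ± 138 CPM (-0.86, adjusted p = 0.00532). Every library of the members lay below every library of the Gfap-detected class for all 3 genes. The other two were Hopx, a homeodomain-only protein, at 16.5 ± 4.29 CPM against 64.7 ± 23.1 CPM (-1.46, adjusted p = 0.00694), and Zbtb20, a repressor of the zinc finger type, at 627 ± 57.8 CPM against 921 ± 142 CPM (-0.54, adjusted p = 0.0272). Hes5, a target of Notch signalling, stood at 727 ± 44.4 CPM against 659.7 ± 80.5 CPM and did not pass (adjusted p = 1.000).

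Of 25 genes of immature and radial glia, 5 were lower in members, 2 were higher and the median was -0.36. Vim, a filament protein like Gfap, stood at 143, 123 and 145 CPM in members and 304, 325 and 294 CPM in Gfap-detected astrocytes (-1.12 ± 0.17, adjusted p = 0.00532). The other lower genes were Igfbp5, Sfrp1 (-1.63), the tetraspanin gene Cd9 (-0.40) and the chromatin protein gene Hmgb1 (-0.44). Against that direction, Ptprz1, a receptor phosphatase for pleiotrophin, was higher in members at 7219, 7842 and 8037 CPM against 4141, 4357 and 5323 CPM (0.75 ± 0.09, adjusted p = 0.000976). The cyclin gene Ccnd1 was also higher, at 166 ± 3.49 CPM against 80.5 ± 3.69 CPM (0.96, adjusted p = 0.000976), while 0 of 16 DNA replication genes differed in either direction with limma, also at an unadjusted p under 0.05.

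Immediate early genes, which are switched on within minutes by activity, stress or handling, were lower in members where they passed. Of 12 tested, 3 were lower and 0 higher (7 lower and 0 higher at an unadjusted p under 0.05), with a median of -0.54. Fos stood at 101, 56.9 and 78.4 CPM in members and 402, 323 and 232 CPM in Gfap-detected astrocytes (-1.89 ± 0.22, adjusted p = 0.000976), and 17.4% ± 3.05 against 40.1% ± 7.19 of cells had it. The classes did not overlap, but Fos differed between libraries within each class. Junb (-1.39, adjusted p = 0.00674) and Ier2 (-0.86, adjusted p = 0.0228) were lower as well. The 3 early genes highest in members were Jund at 254 ± 23.2 CPM, Jun at 160.1 ± 8.67 CPM and Fos at 78.8 ± 22.1 CPM. Their counterparts in Gfap-detected astrocytes stood at 319.8 ± 90.8 CPM, 229 ± 53.9 CPM and 319 ± 85.2 CPM, and of the 3 only Fos passed.

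Reactive astrocyte genes were mostly low. Of 35 listed genes 10 passed the level filter, and 1 of these was lower in members and 0 higher (3 lower and 0 higher at an unadjusted p under 0.05). It was Ptx3, a secreted pentraxin, at 22.1, 11.8 and 24.4 CPM against 70.3, 54.4 and 68.3 CPM (-1.36 ± 0.19, adjusted p = 0.00304). The 3 highest reactive genes in members were Nfkbia, the inhibitor of NF-kappa-B, at 153 ± 11.5 CPM, the transcription factor gene Stat3 at 70.1 ± 1.43 CPM and the hyaluronan receptor gene Cd44 at 31.8 ± 1.37 CPM. They stood at 195 ± 27.8 CPM, 72.6 ± 7.29 CPM and 27.4 ± 0.841 CPM in Gfap-detected astrocytes and did not pass. Of 19 antioxidant and metal defence genes, 3 were lower in members and 0 higher (1 higher and 8 lower at an unadjusted p under 0.05). These were the glutathione transferase genes Gsta4, at 56.5, 45.3 and 61.0 CPM against 131, 116 and 132 CPM (-1.09 ± 0.17, adjusted p = 0.00516), and Gstm1 (-0.60, adjusted p = 0.0272), and the peroxiredoxin gene Prdx6 (-0.59, adjusted p = 0.00689). The metallothionein gene Mt1 stood at 1731, 1934 and 2259 CPM against 2215, 2436 and 2689 CPM, and the 2 classes overlapped.

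**Figure D4:**
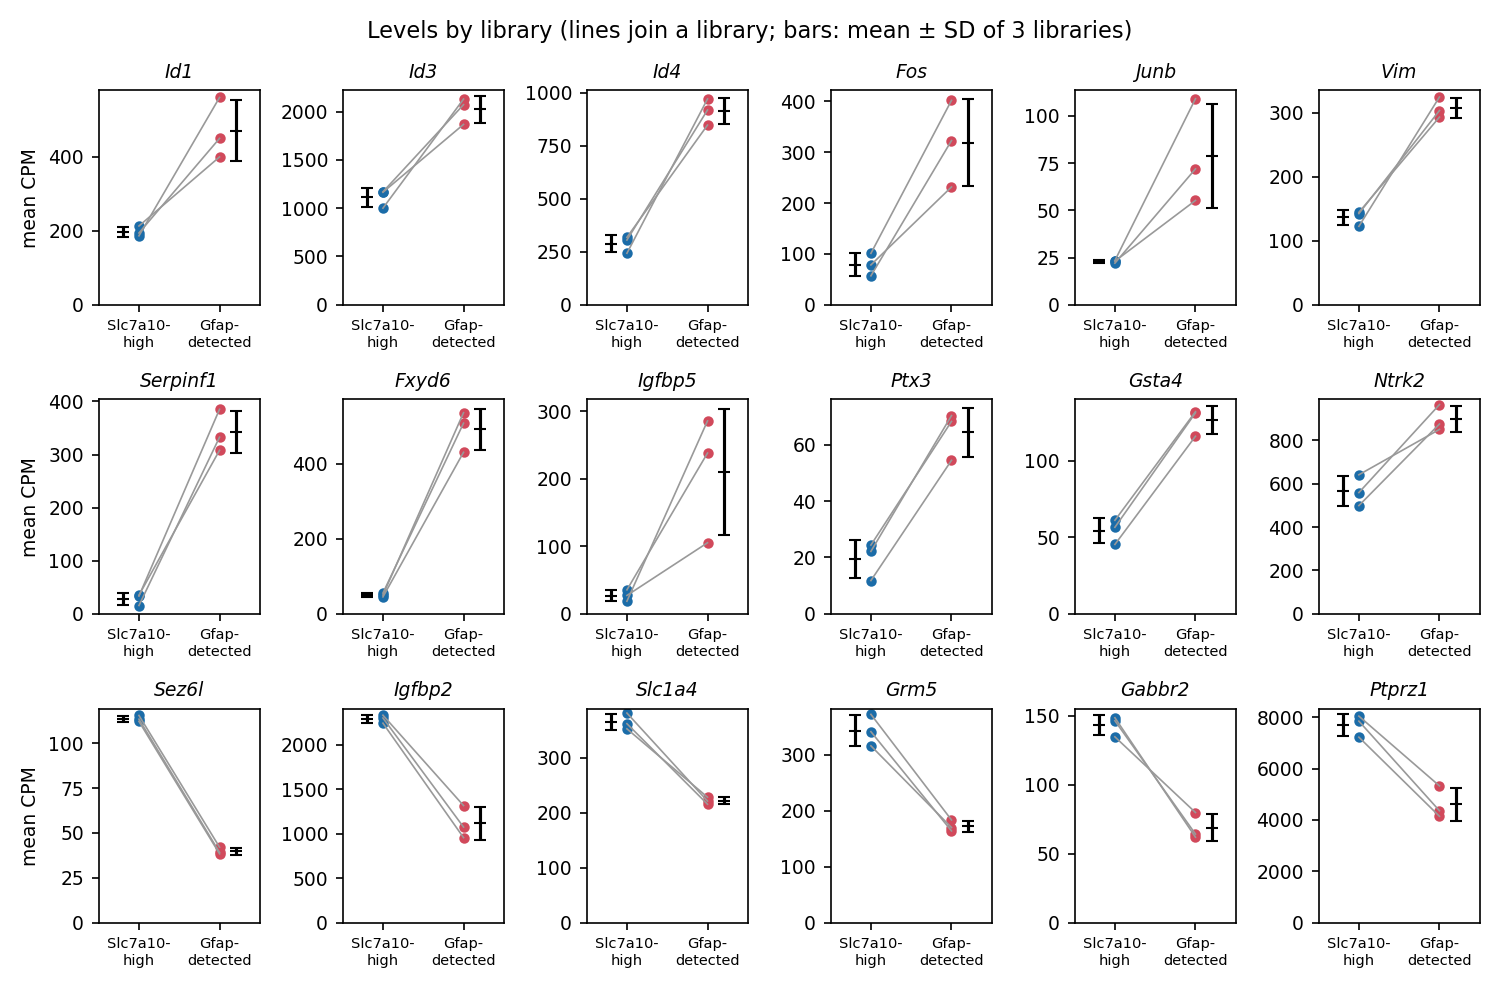
Mean CPM of 18 genes in Slc7a10-high and Gfap-detected astrocytes, 1 point per library with a line joining the classes of a library, and bars for mean ± SD of 3 libraries. The first 12 genes are lower and the last 6 higher in Slc7a10-high astrocytes in each of the 3 libraries.

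Genes higher in members included several of neurotransmitter handling and sensing. Of 11 glutamate handling genes, 2 were higher and 0 lower (1 lower at an unadjusted p under 0.05). They were Slc1a4, a neutral amino acid transporter, at 381, 362 and 352 CPM in members and 221, 215 and 228 CPM in Gfap-detected astrocytes (0.70 ± 0.13, adjusted p = 0.0135), and Got1, the cytosolic aspartate aminotransferase (0.73, adjusted p = 0.0383). Glutamine synthetase, Glul, stood at 4690.5 ± 122 CPM against 4287 ± 223 CPM and did not pass. Of 10 genes of GABA, glycine and serine handling, 1 was lower and 0 higher with limma (2 lower and 1 higher at an unadjusted p under 0.05). It was Phgdh, the first enzyme of serine synthesis, at 576 ± 20.7 CPM against 885 ± 36.1 CPM (-0.61, adjusted p = 0.00340).

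Of 23 surface receptors 4 were higher and 1 lower, with a median of 0.26. The metabotropic glutamate receptor gene Grm5 stood at 341, 372 and 316 CPM in members and 164, 184 and 170.2 CPM in Gfap-detected astrocytes (0.95 ± 0.17, adjusted p = 0.0135). Gabbr2, a subunit of the GABA-B receptor, stood at 146, 149 and 135 CPM against 64.3, 62.0 and 79.9 CPM (0.97 ± 0.17, adjusted p = 0.00876). Members lay above the compared class in every library for both. Lgr6, an R-spondin receptor (0.97, adjusted p = 0.0189), and Gpr37l1 (0.58, adjusted p = 0.00532) were higher too, and the neurotrophin receptor gene Ntrk2 was lower at 567 ± 71.4 CPM against 897 ± 60.2 CPM (-0.66, adjusted p = 0.0294).

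Adhesion, lipid and secreted protein genes showed few calls. Ncam1, a neural adhesion molecule, stood at 639, 645 and 639.6 CPM against 421, 395 and 402 CPM (0.65 ± 0.11, adjusted p = 0.00876), and with Vcam1 (0.55, adjusted p = 0.00727) it made 2 of 8 gap junction and adhesion genes higher and 0 lower (4 and 0 at an unadjusted p under 0.05). The cholesterol synthesis genes Msmo1, at 1492 ± 55.6 CPM against 939 ± 20.1 CPM (0.66, adjusted p = 0.0124), and Sqle (0.49, adjusted p = 0.0211) were the 2 higher of 19 lipid and sterol genes, with 0 lower (7 and 2 unadjusted). Of 16 synapse-directed proteins Mfge8, a bridging protein of phagocytosis, was the only call, at 2056 ± 74.4 CPM against 1508 ± 119 CPM (0.45, adjusted p = 0.0408), and it was lost with at least 2 transporters required in the Gfap-detected class (0.28, adjusted p = 0.521), without the library block (adjusted p = 0.221), when centred on the median gene (0.111), when matched on detected genes per cell (0.0779) and with neuroblast-gene cells removed (0.0573). None of 15 potassium, water and ion transport genes (3 higher and 2 lower at an unadjusted p under 0.05) and none of 22 energy metabolism genes (0 and 3 unadjusted) passed with limma. The potassium channel gene Kcnj10 stood at 249 ± 23.8 CPM against 179 ± 4.49 CPM (adjusted p = 0.162).

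Among the 16 identity genes, 3 were higher in members and 0 lower (8 higher and 2 lower at an unadjusted p under 0.05), with a median of 0.22. They were Btbd17, an astrocyte gene of the BTB domain family, at 618, 672 and 644 CPM against 375, 389.5 and 428 CPM (0.68 ± 0.12, adjusted p = 0.0133), the growth factor receptor gene Fgfr3 (0.56, adjusted p = 0.0184) and Htra1 (0.51, adjusted p = 0.00810). With at least 2 transporters required in the Gfap-detected class all 3 calls were lost, Btbd17 at 0.47 (adjusted p = 0.154), Fgfr3 at 0.39 (adjusted p = 0.197) and Htra1 at 0.31 (adjusted p = 0.179). The neurotensin receptor gene Ntsr2 stood at 199 ± 6.17 CPM against 321 ± 43.7 CPM (adjusted p = 0.316), Gjb6 at 91.8 ± 1.83 CPM against 50.5 ± 2.69 CPM (adjusted p = 0.387), and the tissue factor gene F3 at 405 ± 36.7 CPM against 294 ± 30.1 CPM (adjusted p = 0.107). The other 10 identity genes had log2 differences from -0.35 for Sox9 to 0.40 for Itih3, and none passed. For Ntsr2, Gjb6 and F3 the libraries of members and Gfap-detected astrocytes did not overlap. The SE is pooled over all classes in the fit, so not passing does not show equal levels.

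Layer-linked genes of cortical astrocytes moved in both directions. Of 8 tested, 1 was higher and 2 lower in members. Igfbp2, another binding protein of insulin-like growth factors, stood at 2239.8, 2298 and 2329 CPM in members and 956, 1074 and 1316 CPM in Gfap-detected astrocytes (1.04 ± 0.10, adjusted p = 0.000282), without overlap. The lower ones were Id1 and Id3, given above. Chrdl1, a secreted BMP antagonist, stood at 162 ± 18.4 CPM against 131 ± 15.9 CPM, and the deiodinase gene Dio2 at 229.9 ± 10.4 CPM against 174 ± 28.4 CPM, neither of which passed. Sez6l, a membrane protein of the Sez6 family, had the largest log2 difference upward of all genes, at 113, 115 and 112 CPM against 39.2, 42.1 and 38.4 CPM (1.31 ± 0.17, adjusted p = 0.00200). Fam212b (1.27, adjusted p = 0.00498) and the actin regulator gene Eps8 (1.01, adjusted p = 0.0133) followed.

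Each of the higher calls named in this comparison was lost without library 2, along with all lower ones except Serpinf1, Fxyd6, Igfbp5 and Id4. Without library 3 the named calls kept were Serpinf1, Fxyd6, Igfbp5, Fos, Id1, Hopx, Sfrp1, Igfbp2, Sez6l, Fam212b and Ptprz1, and without library 1 the named calls lost were Eps8, Fgfr3, Got1, Lgr6, Slc1a4, Sqle, Grm5, Gabbr2, Zbtb20, Hopx, Hmgb1, Sfrp1, Junb and Ier2. With at least 2 transporters required in the Gfap-detected class, 24 of the 43 calls among listed and named genes were lost, and the named higher calls kept were Igfbp2, Sez6l, Fam212b, Ptprz1 and Ccnd1. Marker sums of some other cell types overlapped between the 2 classes: neuronal and neuroblast genes summed to between 146 and 232 CPM in members and 104 and 242 CPM in Gfap-detected astrocytes, mural cell genes to between 208 and 322 CPM and 149 and 406 CPM, and hemoglobin and other erythroid genes to between 3196 and 6695 CPM and 2578 and 6863 CPM. Those of another pair of lists did not overlap. Oligodendrocyte precursor genes, a list that holds Olig1 and Olig2, summed to between 932 and 1079 CPM in members and 606 and 664 CPM in Gfap-detected astrocytes, and ependymal genes to between 2.77 and 6.09 CPM and 22.6 and 36.9 CPM. Their part in the differences was not tested.

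The oligodendrocyte lineage factor Olig1 was also present in the members. It stood at 839, 799 and 724 CPM in members and 453, 455 and 484 CPM in Gfap-detected astrocytes (0.75 ± 0.12, adjusted p = 0.00572), and 93.3% of members had it against 16.9% of microglial cells. Its partner Olig2 stood at 201 ± 18.3 CPM against 111 ± 17.5 CPM (adjusted p = 0.0543) and was detected in 62.6% of members and 7.42% of microglial cells. Olig1 and Olig2 were chosen for mention after their values were seen. The rule capped other precursor genes but used neither of them.

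The comparison with dividing astrocytes asks how members differ from astrocytes in cycle. Dividing astrocytes could also hold Gfap and any number of the transporters, unlike members. What goes with division and what goes with that difference in choice cannot be told apart here. Genes lower in members were led by division genes that the rule did not use, and genes higher in members included many of mature astrocyte function. Of 9393 genes, 676 were higher in members (7.2%) and 1358 lower (14.5%), with a median of -0.07. Centring each class and library on its median gene moved the median to 0.08 and the counts to 1197 higher and 905 lower. The members are the same cells in each of the 3 comparisons, which are therefore not independent.

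All 16 DNA replication genes tested were lower in members, with a median of -2.25. Rrm2, a subunit of ribonucleotide reductase, stood at 28.3, 23.1 and 25.6 CPM in members and 527, 553 and 478 CPM in dividing astrocytes (-3.89 ± 0.29, adjusted p = 4.03e-07). Prc1, a protein of the central spindle, stood at 4.33 ± 0.799 CPM against 449 ± 79.3 CPM (-4.99, adjusted p = 2.09e-09). Ccnb1 (-4.93), Ube2c (-4.83), Pclaf (-4.75) and the chromatin gene Hmgb2 (-4.01) were lower to a like degree. Since the classes were chosen by other division genes in the same cells, these values describe the split and do not test it.

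Genes of astrocyte function were higher in members than in dividing astrocytes. Of the 16 identity genes 14 were higher and 0 lower, with a median of 0.70. Btbd17 stood at 618, 672 and 644 CPM against 199, 304 and 235 CPM (1.38 ± 0.12, adjusted p = 3.05e-06) and F3 at 405 ± 36.7 CPM against 168 ± 18.5 CPM (1.22, adjusted p = 6.68e-06). Sox9 stood at 269 ± 8.79 CPM against 248 ± 15.8 CPM and Aldh1l1 at 329 ± 13.5 CPM against 286 ± 15.3 CPM, and these 2 did not pass. Of 19 lipid and sterol genes 16 were higher and 0 lower (median 0.63), among them the cholesterol exporter gene Abca1 at 193, 218 and 198 CPM against 98.8, 108 and 102 CPM (0.91 ± 0.14, adjusted p = 0.000434). Of 23 surface receptors 13 were higher and 0 lower (median 0.57), with Grm5 at 341, 372 and 316 CPM against 103, 143 and 175 CPM (1.26 ± 0.17, adjusted p = 0.000151). The groups did not overlap for Btbd17, Abca1 or Grm5.

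Potassium, water and ion transport genes were higher in 8 of 15 cases and lower in 1, led by the potassium channel gene Kcnj16 at 153, 152 and 141 CPM against 48.1, 59.1 and 83.3 CPM (1.13 ± 0.16, adjusted p = 0.000202). Of 8 gap junction and adhesion genes 5 were higher and 0 lower, led by Lsamp (0.80, adjusted p = 6.62e-05), and of 16 synapse-directed proteins 7 were higher and 0 lower, led by the glypican gene Gpc5 (0.92, adjusted p = 0.0149). Of 10 genes of GABA, glycine and serine handling 1 was higher, the glycine transporter gene Slc6a9 (0.61, adjusted p = 0.00418), and 1 lower, the mitochondrial serine enzyme gene Shmt2 at 29.1 ± 1.52 CPM against 52.0 ± 9.74 CPM (-0.65, adjusted p = 0.00856). The glycolytic gene Aldoa was higher at 689.7 ± 9.64 CPM against 408 ± 2.17 CPM (0.74, adjusted p = 1.35e-05). Slc38a1, a glutamine transporter more typical of neurons, was lower at 10.6 ± 3.40 CPM against 52.6 ± 35.1 CPM (-1.47, adjusted p = 0.0104). The homeobox gene Dbx2 was higher (1.10, adjusted p = 0.000601), while 5 of 29 transcription factors were higher and 6 lower.

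Immature glia genes were lower in 12 of 25 cases and higher in 5. Of the 12 immediate early genes 2 were lower and 0 higher (3 lower unadjusted), and Fos stood at 78.8 ± 22.1 CPM against 162 ± 78.4 CPM (-0.89, adjusted p = 0.0108). Emp1, a membrane protein on the reactive list, was lower (-1.75, adjusted p = 0.000458), as was the thioredoxin reductase gene Txnrd1 (-0.71, adjusted p = 0.00305). Agt, the angiotensin precursor and a layer-linked gene, was higher (1.04, adjusted p = 0.00968). The largest differences upward were in Hbb-bt (1.82, adjusted p = 0.0422), whose libraries overlapped at 279, 637 and 504 against 23.2, 325 and 184 CPM, in the folate transporter gene Slc46a1 (1.51, adjusted p = 2.12e-05) and in Tlcd1 (1.41, adjusted p = 3.80e-05). Dividing astrocytes had 435 to 1751 CPM of summed neuronal and neuroblast markers, against 146 to 232 CPM in members. With cells holding neuroblast genes removed, 403 genes were higher and 968 lower. Of the 155 calls among listed and named genes 51 were lost by that step. They included Slc38a1, Agt, Hbb-bt, Txnrd1, Fgfr3, Gjb6, Slc6a9 and Ntsr2. With cells of other types removed 56 of the 155 were lost, among them the identity genes Itih3 (adjusted p = 0.0542) and Ttyh1 (0.0984). The counts were 384 higher and 904 lower without library 1, 262 and 666 without library 2, and 391 and 986 without library 3. Of the same 155 calls, 35 were lost without library 1, 66 without library 2 and 38 without library 3. Among them were Fos, Gjb6 and Itih3 without library 1. Without library 2 they included Acsbg1, Agt, Cst3, Fgfr3, Gjb6, Gpc5, Hbb-bt, Itih3, Ntsr2, Shmt2, Slc38a1, Slc6a9 and Ttyh1. Without library 3 they included Agt, Hbb-bt, Ntsr2, Shmt2 and Txnrd1.

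The comparison with few-transporter astrocytes asks what else changes at the threshold of the rule. Of 9393 genes 1378 were higher in members (14.7%) and 1200 lower (12.8%), with a median of 0.04. The compared class was mixed. Its summed neuronal and neuroblast markers were 1374 to 1689 CPM against 146 to 232 CPM in members, its mural markers 870 to 3327 CPM against 208 to 322 CPM, and its erythroid markers 9377 to 39485 CPM against 3196 to 6695 CPM. Ependymal markers reached 1905 CPM in library 1 of that class and were between 2.77 and 6.09 CPM in members. Of the markers tested, 8 of 9 neuronal, 5 of 6 mural, 4 of 5 erythroid, 3 of 3 ependymal and 3 of 3 microglial genes were lower in members. With cells that held 2 or more neuroblast, mural, ependymal or fibroblast genes removed from all classes, a step chosen after the data were seen, 1123 genes were higher and 708 lower. Of the 206 calls among listed and named genes, 63 were lost by that step. Without library 2 the counts were 708 higher and 614 lower.

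Most groups of astrocyte function were higher in members. Of 16 identity genes 15 were higher, with a median of 1.41 against 0.04 over all genes. Htra1 stood at 1284, 1249 and 1221 CPM in members and 224, 287 and 241 CPM in few-transporter astrocytes (2.28 ± 0.08, adjusted p = 7.24e-09), and Gjb6 at 93.0, 92.8 and 89.7 CPM against 21.3, 23.6 and 2.75 CPM (2.10 ± 0.29, adjusted p = 0.000149). Neither gene overlapped between the classes. Sox9, the identity gene that did not pass, stood at 261, 268 and 279 CPM against 435, 238 and 238 CPM, with library 1 of the few-transporter class high. Of 19 lipid and sterol genes 18 were higher and 0 lower (median 1.02), including Msmo1 (1.63, adjusted p = 9.05e-07) and Lcat, the enzyme that esterifies cholesterol (1.59, adjusted p = 3.71e-05). Of 23 receptors 19 were higher and 1 lower (median 1.02), with Gabbr2 at 146, 149 and 135 CPM against 8.24, 18.8 and 9.69 CPM (2.81 ± 0.17, adjusted p = 2.70e-07) and Lgr6 (2.08, adjusted p = 4.09e-06). Of 16 synapse-directed proteins 14 were higher and 1 lower (median 0.88), with Sparcl1, a secreted promoter of synapse formation, at 5477 ± 188 CPM against 1929 ± 399 CPM (1.52, adjusted p = 9.01e-07) and Bcan, the matrix proteoglycan brevican (1.43, adjusted p = 2.57e-06). With cells of other types removed, the calls for Gpc5, Megf10, Ncan, Nlgn1, Sparc and Vcan of that list were lost. So were those for the receptor genes Adrb1, Ednra, Egfr, Fgfr1, Fgfr2 and Gabrb1 and the lipid genes Hmgcs1 and Srebf1.

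The glycine transporter gene Slc6a9 stood at 92.3 ± 6.35 CPM against 26.8 ± 3.43 CPM (1.48 ± 0.13, adjusted p = 3.31e-06), and Abat, the enzyme that breaks down GABA, at 148 ± 9.62 CPM against 73.1 ± 18.7 CPM (0.95, adjusted p = 0.000176). They made 2 of 10 genes of GABA, glycine and serine handling higher and 0 lower (4 and 0 unadjusted). Glutamate handling genes were higher in 6 of 11 cases and lower in 1: Slc1a4 was higher, at 365 ± 14.6 CPM against 98.0 ± 15.4 CPM (adjusted p = 7.46e-07), and Slc38a1 lower (-2.84, adjusted p = 6.72e-05). Potassium, water and ion transport genes were higher in 11 of 15 cases and lower in 1, with Kcnj16 (1.60, adjusted p = 9.39e-06) and the metal exporter gene Slc30a10 (1.47, adjusted p = 6.74e-06) leading. Of 8 gap junction and adhesion genes 7 were higher and 0 lower, led by Nrcam (1.91, adjusted p = 4.24e-07) and Vcam1 (1.58, adjusted p = 2.11e-07). Of 22 energy metabolism genes 6 were higher and 0 lower, led by the glycolytic regulator gene Pfkfb3 (1.25, adjusted p = 0.000101) and the glycogen gene Ppp1r3c (1.24, adjusted p = 1.29e-05). With cells of other types removed, the calls for the ion transport genes Atp1b1, Dtna, Slc12a2 and Slc30a1 were lost. Those for the adhesion gene Ctnnd2 and the energy genes Aldoa, Gys1 and Ppp1r3g were lost too. All 8 layer-linked genes were higher, led by Dio2 (1.98, adjusted p = 1.74e-06) and Agt (1.93, adjusted p = 8.48e-05). They include Id1 and Id3 (0.50 and 0.44), which were lower in members than in Gfap-detected astrocytes. Both calls were lost without library 1 (adjusted p = 0.119 and 0.25), without library 2 (0.132 and 0.0926) and with cells of other types removed (0.525 and 0.913).

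Genes lower in members than in few-transporter astrocytes were led by Tm4sf1, a surface protein of vessels and reactive cells (-3.87, adjusted p = 4.49e-05), the cilium gene Dynlrb2 (-3.18, adjusted p = 0.00233), the contractile cell gene Cald1 (-3.13, adjusted p = 3.37e-06), and Cd24a (-3.07, adjusted p = 2.95e-07), Igfbpl1 (-3.07, adjusted p = 5.84e-05) and S100a11 (-3.01, adjusted p = 6.88e-07). Dynlrb2 stood at 603, 67.4 and 13.5 CPM in few-transporter astrocytes, high in library 1 where the ependymal markers were high, and its call was lost without library 2 (adjusted p = 0.0576). With cells of other types removed, Tm4sf1, Dynlrb2 and the nuclear receptor gene Nr2f2 fell below the level filter, and the calls for Cald1 (adjusted p = 0.36), Igfbpl1 (0.147), S100a10 (0.0676) and Ier5 (0.101) were lost. On the reactive list 3 of 10 genes were higher and 6 lower, S100a10 among the lower (-2.03, adjusted p = 0.000250). Besides Tm4sf1 and S100a10, the call for Emp1 of that list (adjusted p = 0.101) was lost with cells of other types removed. S1pr3, also called, fell below the level filter there. With neuroblast-gene cells removed, the calls for B3gnt5 (0.0543) and Ptx3 (0.0537) were lost. Of 12 immediate early genes 7 were lower and 0 higher, with Fos at 101, 56.9 and 78.4 CPM against 350.4, 103 and 177 CPM (-1.18 ± 0.22, adjusted p = 0.00136) and Ier5 (-0.99, adjusted p = 0.000276). With cells of other types removed, the calls for Egr1 (adjusted p = 0.216), Ier2 (0.388), Junb (0.125) and Jund (0.0901) were lost like that for Ier5. The call for Fos was kept. Of 25 genes of immature glia 13 were lower and 8 higher, with Sfrp1 (-1.95, adjusted p = 0.000730) and Bcl11a (-1.91, adjusted p = 0.000229) leading, and of 16 DNA replication genes 5 were lower and 0 higher, led by Mcm6 (-1.41, adjusted p = 3.91e-05) and Lig1 (-0.95, adjusted p = 0.00389), the latter lost with neuroblast-gene cells removed (adjusted p = 0.0772) and from means of the deposited values (0.0606). Of 29 transcription factors 9 were higher and 6 lower, with Dbx2 (1.77, adjusted p = 9.24e-06) and Nr2f2 (-1.41, adjusted p = 0.00351) furthest apart, and Nr2f2 also fell below the filter without library 2 or 3. Of 19 defence genes 1 was higher, the cystine transporter gene Slc7a11 (1.29, adjusted p = 3.24e-06), and 7 were lower, led by the ferritin gene Ftl1 (-1.17, adjusted p = 4.36e-06).

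Over all genes, the largest differences upward were in Gabbr2 and Htra1, given above, and 4 further genes. Atp13a4, a transporting ATPase, stood at 48.0, 53.6 and 62.2 CPM against 0, 7.28 and 2.64 CPM (2.31 ± 0.22, adjusted p = 5.31e-06). Hsd11b1, which reactivates glucocorticoids, stood at 68.5, 76.0 and 77.9 CPM against 11.8, 14.4 and 0 CPM (2.27 ± 0.24, adjusted p = 1.71e-05). Each was at 0 in 1 library of the few-transporter class. The protocadherin gene Pcdh7 (2.24, adjusted p = 2.05e-07) and Arpp21 (2.21, adjusted p = 8.07e-06) completed the set.

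**Figure D5:**
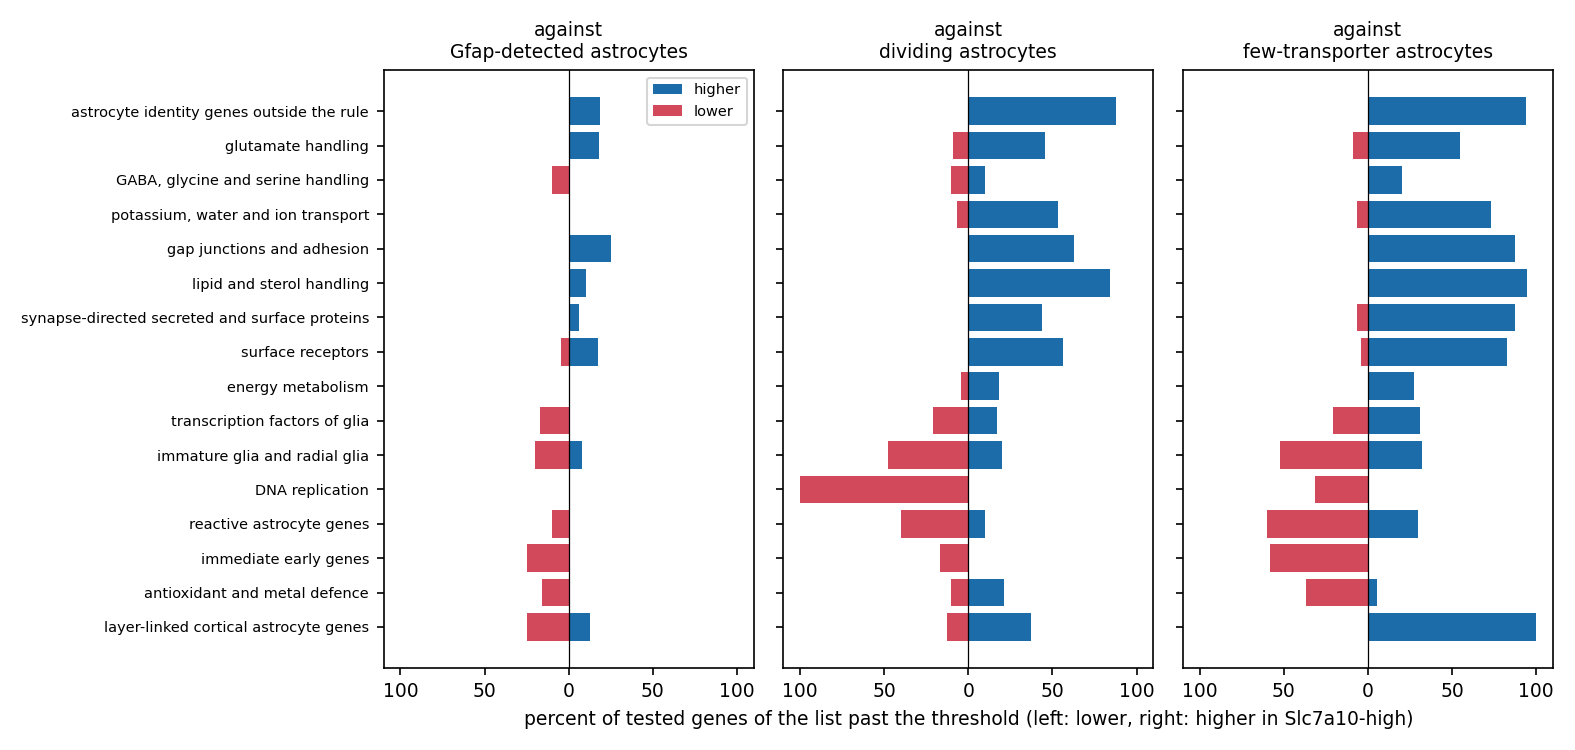
Percent of the tested genes of each of 16 lists that were higher (right, blue) or lower (left, red) in Slc7a10-high astrocytes at an adjusted p under 0.05, against Gfap-detected, dividing and few-transporter astrocytes. Calls are sparse against Gfap-detected astrocytes, DNA replication genes are all lower than in dividing astrocytes, and all 8 layer-linked genes are higher than in few-transporter astrocytes.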

How the data were processed

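The deposited table holds natural log values, ln(1 + a whole number), for 20368 genes in 14192 cells: all 34958786 values above 0 were whole (tolerance 1e-06) once the log was undone. Totals per cell lay between 4422 and 8135, so the whole numbers were read as depth-adjusted counts. What the authors did to make the deposited values is not given in the sources used here, and no count model was fitted. The submitters' processing notes name CASAVA 1.8, Cell Ranger, Seurat and mm10. The depth as sequenced is unknown.

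Each cell was scaled to a total of 1000000 (CPM) and averaged per class and library. These means, as log2(mean + 10 CPM), went into a limma model (version 3.58.1, R 4.3.3, mean-variance trend) over 4 astrocyte classes in 3 libraries, with 6 residual degrees of freedom, for the 9393 genes that averaged 10 CPM or more, and Benjamini-Hochberg adjusted p-values were taken against 0.05. Library was a block, since each library holds cells of all 4 classes. The 20 genes of the rule were left out of the tests. The remaining genes were read in the same cells as those 20, so the tests describe what goes with the rule and are not independent of it. Classes with under 20 cells in a library were not fitted. Scrublet in scanpy 1.11.5 marked suspected doublets, which were removed only as an alternative. The fit was also run on simulated data with the same added noise in all classes, read only for the comparison with Gfap-detected astrocytes. That run does not show how well the p-values hold for classes that differ in spread.

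The members, gene lists and tests were chosen with earlier results of these data known. Named genes were, for each comparison, the genes of each list with the largest difference among those past the threshold (2 per list against few-transporter astrocytes, 1 otherwise), the largest differences over all genes (6 or 4 in each direction), all identity genes, and the 3 early and 3 reactive genes highest in members. Other genes of the lists are given as counts with examples, chosen after their values were seen. A few genes of the lists are not reported here and were left out of the lists' counts. Of 108 genes looked up in the GENCODE annotation of GRCm38, 107 were found. Promoter sequences are from RefSeq.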

Additional observations from a re-analysis of the deposited data

How the results depend on the processing

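Against Gfap-detected astrocytes, genes higher and lower in members numbered 40 and 98. They became 3 and 19 without a level filter, 821 and 1077 with only the 2 classes in the fit, 19 and 57 when matched on detected genes per cell, 87 and 173 for members with all 3 transporters, 140 and 217 for at least 1 transporter, 8 and 41 with at least 2 transporters required in the Gfap-detected class (added after the data were seen) and 111 and 85 from means of the deposited values. Leaving out each replicate in turn gave 0 to 21 higher and 4 to 73 lower. Of these, the 821 and 1077 held all 40 and 98 genes. Against few-transporter astrocytes, with 1378 and 1200, the lower count became 708 with cells of other types removed (also added) and 666 from deposited means, and leaving out a replicate gave 708 to 1101 higher and 614 to 956 lower. Against dividing astrocytes, with 676 and 1358, centring on the median gene gave 1197 and 905. The higher count was 403 with neuroblast-gene cells removed, 1151 for members with at least 1 transporter and 382 with cells of other types removed, and leaving out a replicate gave 262 to 391 higher and 666 to 986 lower. The cause of these shifts was not tested, except that fewer libraries were fitted where 1 was left out.

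Without the replicate block the counts were 35 and 80 against Gfap-detected and 628 and 1309 against dividing astrocytes. The share of members, 13.1%, was 15.7% with neuroblast-gene cells removed, 9.35% with all 3 transporters required, 8.26% with no gene of other types allowed and 17.5% with cells of other types removed. Among the identity genes and the genes named for the size of their difference, no call changed direction in the alternatives run. Some other listed calls did. The mural genes Rgs5 and Vtn were called lower in members than in few-transporter astrocytes. With cells of other types removed their log2 differences were 0.0018 and 0.27, and neither passed. With at least 1 transporter required, the few-transporter class kept 18 cells in libraries 2 and 3 and was not fitted. The depth behind the corrected counts is unknown, so a corrected count of 0 for Gfap or a transporter does not show that a cell lacks it.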

Other observations

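Slc3a2 encodes the heavy chain that carries Slc7a10 and other light chain amino acid exchangers to the cell surface. It belonged to no list and was looked up after the values of other genes had been seen. It stood at 714, 749 and 675 CPM in Slc7a10-high astrocytes, 467, 444 and 460.2 CPM in Gfap-detected, 374, 397 and 421 CPM in dividing and 189.5, 231 and 254 CPM in few-transporter astrocytes. Members lay above each other class without overlap, by a log2 difference of 0.63 ± 0.10, adjusted p = 0.00538, 0.83 ± 0.10, adjusted p = 4.03e-05 and 1.63 ± 0.10, adjusted p = 2.88e-07 with limma. The call against Gfap-detected astrocytes was lost without library 2, where 0 genes were called higher in members.

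Hemoglobin RNA was found in members at levels that varied between libraries. Hbb-bs stood at 1417, 2829 and 3075 CPM in members and was detected in 88.8% ± 9.14 of them, close to 88.2% ± 9.62 of microglial cells. Its median corrected count in members was 2 and its highest 2416. Where this RNA came from was not tested.

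Apolipoprotein E and glutamine synthetase transcripts were abundant in members. Apoe stood at 28639.6, 30527 and 29765 CPM in members against 3416 ± 578 CPM in the 10439 cells outside the 4 astrocyte classes, and Glul at 4667, 4823 and 4582 CPM against 443 ± 41.7 CPM. In Gfap-detected astrocytes they stood at 27955 ± 1527 CPM and 4287 ± 223 CPM, in few-transporter astrocytes at 15847 ± 2884 CPM and 2291 ± 699 CPM, and in dividing astrocytes at 18127 ± 2536 CPM and 2845 ± 503 CPM.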
